A study of Mus musculus with 10 samples.

Results

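Nuclear genes of the respiratory chain were compared between regulatory T (Treg) cells with and without Helios, a zinc finger transcription factor encoded by Ikzf2. Members were every gene of the deposited table whose symbol starts with Nduf, Sdha to Sdhd, Uqcr, Cox4 to Cox8, Atp5, Cyc1 or Cycs, a rule that uses names and no measured value. It took 87 of the 13252 genes in the table. A mean of at least 10 normalized counts, required for testing, was reached by 85 of the 87, among 10718 genes tested in all. The members were grouped by complex, with 35 tested in complex I (7 core and 28 accessory subunits), 4 in complex II, 9 in complex III, 12 in complex IV and 15 in complex V. Cytochrome c was 1 gene. Another 6 were assembly factors, which help to build complexes I and II, and 3 matched the pattern without being counted as subunits here (Cox4nb, Atp5s and Atp5sl).

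The libraries came from mouse Treg cells sorted as CD4+RFP+GFP+ (labelled Helios+) or CD4+RFP+GFP- (labelled Helios-), with 5 libraries in each group, numbered 1 to 5. The labels give no strain, age or agent, and they do not state what RFP reports. The design text speaks of wildtype against knockout, whereas the sample labels describe sorted populations, and the groups here follow the labels, so each difference is one between sorted populations. The labels name no mouse, sort or culture for a library, so each p-value here measures only how these samples vary, and part of that variation may be technical.

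The respiratory chain passes electrons from NADH (complex I) or succinate (complex II) through ubiquinone, complex III and cytochrome c to oxygen at complex IV, and pumps protons across the inner mitochondrial membrane. Complex V, the ATP synthase, makes ATP from the return of these protons. A few subunits are encoded in mitochondrial DNA and all others in the nucleus, and Treg cells are known to rely on oxidative metabolism more than conventional effector T cells do.

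Ikzf2 fitted the labels in each library. It had 418 to 572 normalized counts in Helios- libraries and 9667 to 10906 in Helios+ libraries. The exact permutation test of the difference gave p = 0.00794 (two-sided, n = 5 per group), and the exact test within pairs gave p = 0.0625, the smallest that 5 pairs allow. The Treg marker Foxp3 (3296 to 3833 in Helios-, 3284 to 3764 in Helios+) and the T cell marker Cd3e (2283 to 3409 and 2808 to 3484) were high in both groups. Markers of other cells were lower but present. The B cell gene Cd79a had 240 to 355 normalized counts in Helios- and 202 to 276 in Helios+ libraries, and Ms4a1 had 290 to 386 and 229 to 335. The summed counts of 4 of 5 listed macrophage and monocyte markers (Lyz2, Csf1r, Itgam and Cd14) were 167 to 285 and 249 to 458. Csf1r was at 28.6 to 44.5 and 53.5 to 71.3, and Cd14 at most 4.19. Lyz2 (95.3 to 178 and 143 to 322) and Itgam (30.6 to 78.8 and 40.1 to 60.8) overlapped between groups. The Helios+ mean was higher for Lyz2 and lower for Itgam. The part of these cells in the results was not tested. Recovered reads ranged from 4872348 to 6948692 per library.

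As a group, the members were at nearly the same level in Helios+ and Helios- Treg cells. Summed over the 87 members, the normalized counts came to 24927 ± 4101 for Helios- and 24826 ± 1800 for Helios+ (mean ± SD, n = 5 each). In Helios- libraries 1 to 5 this sum was 19054, 24679, 30418, 24152 and 26331. In Helios+ libraries 1 to 5 it was 22479, 24689, 27051, 23847 and 26063. The Helios+ sums all lay within the range of the Helios- sums. In bulk samples, fewer cells of a type and less RNA per cell cannot be told apart, and this holds for each level given here.

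By limma with Benjamini-Hochberg adjustment over all genes tested, 3 members rose in Helios+ cells (Sdhaf1, Ndufc2 and Atp5g3) and 2 fell (Ndufs1 and Ndufaf4), out of 85. Of all genes tested, 24.8% were called in either direction, 14.1% higher and 10.7% lower. The median log2 change of the members, Helios+ minus Helios- on the scale of log2(normalized count + 1), was 0.01, with single members between -0.36 and 0.52. Over all genes tested the median was -0.02. Without regard to sign, the median size of the change was 0.09 for the members and 0.18 for all genes. The 95% limma interval lay within a 1.5-fold change for 73 of the 85 members (85.9%), against 62.8% of all genes tested.

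Helios- and Helios+ libraries of the same number deviated from their group means together, so the numbers were also used as a block, meaning that each number had a level of its own in the fit. With the block, 7 members rose and 2 fell, where 37.3% of all genes tested were called, 18.9% higher and 18.5% lower. The 4 members added were Cox5b, Cox6c, Cox7b and Cox8a, all of complex IV. The groups did not overlap for 2 members, Ndufc2 (higher) and Ndufs1 (lower), against 19.5% of all genes tested (11.2% higher and 8.37% lower). On recovered reads, edgeR called 3 members higher and 2 lower, where it called 24.6% of all genes. With the replicate block it called 9 higher and 2 lower, where it called 37% of all genes, 19.7% higher and 17.3% lower. The members it added to those of limma were Atp5j, of the stalk of complex V, and Ndufb9, of complex I.

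**Figure D1:**
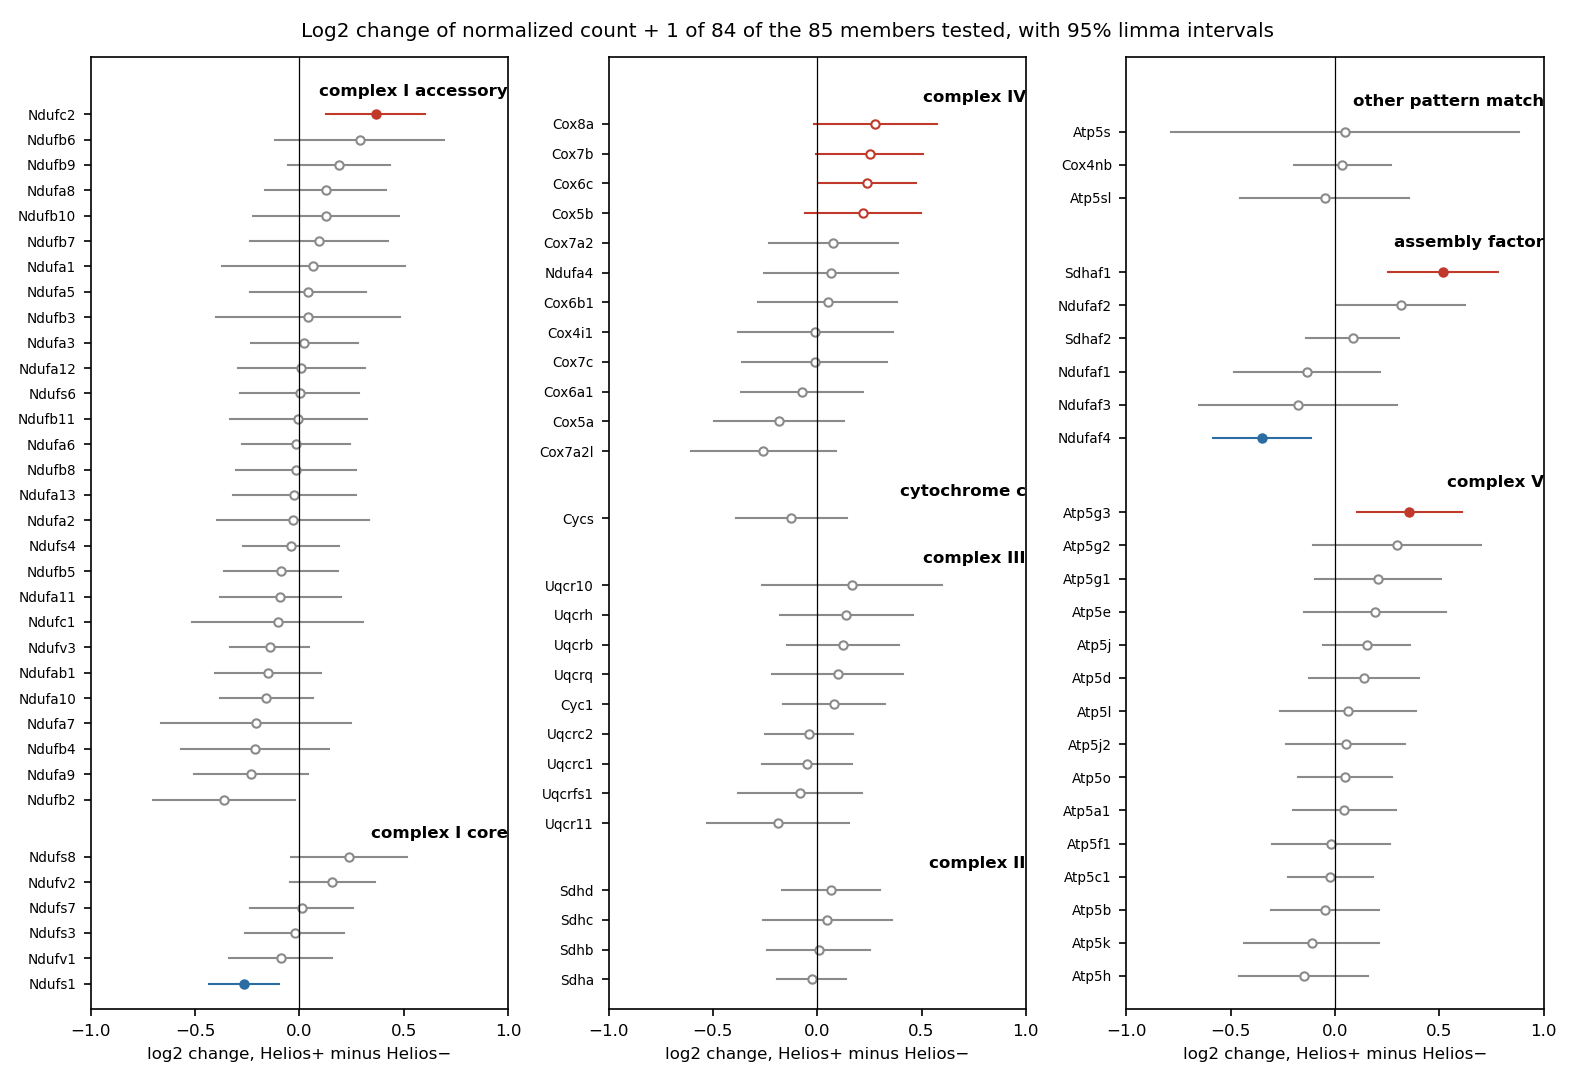
Log2 change (Helios+ minus Helios-, x axis) of 84 of the 85 members tested, by complex, with its 95% limma interval. Filled red or blue points are the 3 higher and 2 lower calls by limma, open red points are the 4 members called only with the replicate block, and grey points were not called; single changes run from -0.36 to 0.52.

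The largest change among the members was in an assembly factor of complex II. Sdhaf1 (chromosome 7, 30321406 to 30323895, minus strand), which helps to insert the iron-sulfur clusters of the subunit SDHB, had 146, 182, 146, 142 and 145 normalized counts in Helios- libraries 1 to 5. Its Helios+ values were 242, 261, 206, 163 and 229. Each Helios+ library was above the Helios- library of its number, but Helios+ library 4 was below Helios- library 2. The group means were 152 ± 16.7 and 220 ± 37.7 (SD, n = 5 each), a log2 change of 0.52 ± 0.12 (SE), with a limma adjusted p of 0.00542 and of 8.63e-05 with the replicate block. Leaving out any single library kept its call. In the gene annotation used here (GENCODE, GRCm38), 69.6% of the exon bases of Sdhaf1 overlap E130208F15Rik, so whether the reads belong to Sdhaf1 is uncertain, because the strand setting of the counting is not given.

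Ndufaf4, an assembly factor of complex I (chromosome 4, 24898083 to 24905001, plus strand), had 110, 131, 144, 122 and 121 normalized counts in Helios- libraries. It had 111, 100, 84.6, 100 and 96.2 in Helios+ libraries. Only the libraries numbered 1 broke the separation, with nearly equal values. Ndufaf4 fell by 0.35 on the log2 scale (SE 0.11), from 126 ± 12.8 to 98.5 ± 9.52 (SD, n = 5), with a limma adjusted p of 0.0297. The call was lost in 6 of the 10 fits that each left out 1 library, where the adjusted p rose to at most 0.0788. It was also lost in 4 of the 5 fits that each left out both libraries of 1 number. Of the other assembly factors, Sdhaf2, the most abundant by count and a factor that attaches flavin to SDHA, had a log2 change of 0.08 ± 0.11 (SE) and was not called.

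Complex I, the NADH dehydrogenase, gave 1 lower and 1 higher call among 35 subunits. Ndufs1, the largest core subunit and a carrier of iron-sulfur clusters (chromosome 1, 63143596 to 63176833, minus strand), had 415, 397, 344, 405 and 339 normalized counts in Helios- libraries. In Helios+ libraries it had 299, 304, 317, 330 and 325. The groups did not overlap, though Helios- libraries 3 and 5 lay close to the Helios+ values. Ndufs1 fell by 0.27 on the log2 scale (SE 0.08), from 380 ± 35.8 to 315 ± 13.3 (SD, n = 5), with a limma adjusted p of 0.0209 and of 0.00549 with the block. The call was lost without Helios- library 2 or 4 (adjusted p at most 0.0584). It was also lost in 3 of the 5 fits that each left out both libraries of 1 number (1, 2 or 4).

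The accessory subunit Ndufc2 (chromosome 7, 97400003 to 97407802, plus strand) lies in the membrane arm of complex I. It had 72.6, 76.2, 69.9, 62.4 and 65.2 normalized counts in Helios- libraries. It had 84.9, 83.6, 96.6, 88.4 and 93.9 in Helios+ libraries. Each Helios+ library was above each Helios- library. Ndufc2 rose by 0.37 ± 0.11 on the log2 scale (SE), from 69.3 ± 5.55 to 89.5 ± 5.62 (SD, n = 5), with a limma adjusted p of 0.0253. The call was lost in 4 of the 10 fits without 1 library and in 3 of the 5 fits without both libraries of 1 number. It was also lost when a trend on gene length was removed (adjusted p = 0.0762 by limma). The other 33 subunits of complex I were not called by limma with or without the block.

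None of the 4 subunits of complex II, succinate dehydrogenase, was called by limma with or without the block, or had an unadjusted p under 0.05 in the fit without it. In that fit 3804 of all 10718 genes tested had an unadjusted p under 0.05. Sdha, the flavoprotein that oxidizes succinate, had 1355, 1600, 1651, 1556 and 1593 normalized counts in Helios- libraries. It had 1318, 1509, 1614, 1493 and 1693 in Helios+ libraries. Library 1 was lowest in both groups. The log2 change of Sdha was -0.03, with a 95% limma interval from -0.19 to 0.14. The iron-sulfur subunit Sdhb had means of 297 ± 51.9 and 295 ± 29.3 (SD, n = 5). The membrane anchors that bind ubiquinone, Sdhc and Sdhd, had log2 changes of 0.05 ± 0.15 and 0.06 ± 0.11 (SE).

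In complex III, which passes electrons from ubiquinol to cytochrome c, none of 9 subunits was called with or without the block. None had an unadjusted p under 0.05 by limma without the block, against 3804 of all 10718 genes tested. Uqcrh, the hinge subunit, had the most counts, with 389, 549, 758, 532 and 671 in Helios- and 553, 594, 689, 583 and 710 in Helios+ libraries. Helios- library 1 was lowest and Helios- library 3 highest of all 10. Its log2 change was 0.14 ± 0.15 (SE). The highest change in the complex was 0.17 ± 0.20 (Uqcr10) and the lowest -0.19 ± 0.16 (Uqcr11). Cycs, cytochrome c, had 205, 271, 357, 288 and 310 normalized counts in Helios- and 275, 218, 279, 272 and 254 in Helios+ libraries. Its values overlapped, and its log2 change was -0.12 with a 95% limma interval from -0.39 to 0.15. Of the 50-base words of Cycs, 28.5% also occur in other genes, so its reads may be split with near copies.

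Complex IV, cytochrome c oxidase, gave no call by limma without the block (1 of 12 subunits had an unadjusted p under 0.05) and 4 higher calls with it. Of all 10718 genes tested, 3804 had such an unadjusted p, and with the block 18.9% were called higher. The 4 members called were small nuclear subunits that surround the catalytic core. Cox6c had 315, 441, 516, 428 and 497 normalized counts in Helios- libraries. It had 480, 529, 527, 499 and 523 in Helios+ libraries. Each pair was higher in Helios+, by between 0.03 and 0.61 on the log2 scale, while the groups overlapped. The log2 change was 0.24 ± 0.11 (SE), with a limma adjusted p of 0.134, and of 0.0121 with the block.

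Cox5b, a zinc-binding subunit, had 213, 267, 371, 280 and 314 normalized counts in Helios- and 280, 312, 380, 323 and 373 in Helios+ libraries. All 5 pairs were higher in Helios+, and the limma adjusted p was 0.253 without and 0.0179 with the block, for a log2 change of 0.22 ± 0.13 (SE). A share of 21.8% of its 50-base words occurs in other genes. Cox7b had 182, 246, 298, 216 and 285 in Helios- and 257, 290, 314, 285 and 294 in Helios+ libraries. It was also higher in all 5 pairs, with a log2 change of 0.25 ± 0.12 (SE) and a limma adjusted p of 0.152 without and 0.0167 with the block. Cox8a had 158, 189, 308, 219 and 229 in Helios- and 250, 271, 282, 259 and 246 in Helios+ libraries. It was higher in 4 of 5 pairs, with a limma adjusted p of 0.162 without and 0.0267 with the block, for a log2 change of 0.28 ± 0.14 (SE).

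These 4 calls rested in part on replicate 1. With the block and without both libraries numbered 1, the log2 changes of Cox5b, Cox6c, Cox7b and Cox8a were 0.18, 0.15, 0.19 and 0.18, with limma adjusted p-values of 0.0598, 0.0719, 0.0695 and 0.123. In that fit 3 members were called higher and 9 lower, where 36.8% of all genes tested were called, 18.7% higher and 18.1% lower. Among the 9 were Cox7a2l, a factor of respiratory supercomplexes, with a log2 change of -0.40, and Cycs with -0.26. Over all 10 libraries neither was called with or without the block. Cox7a2l had 449, 682, 1004, 687 and 752 normalized counts in Helios- and 554, 575, 649, 516 and 607 in Helios+ libraries. Its pair 1 went up and the other 4 pairs went down, and its log2 change over all libraries was -0.26 ± 0.16 (SE). With the block and without both libraries numbered 3, 7 members were called higher and 1 lower, where 34.8% of all genes tested were called, 18% higher and 16.8% lower.

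**Figure D2:**
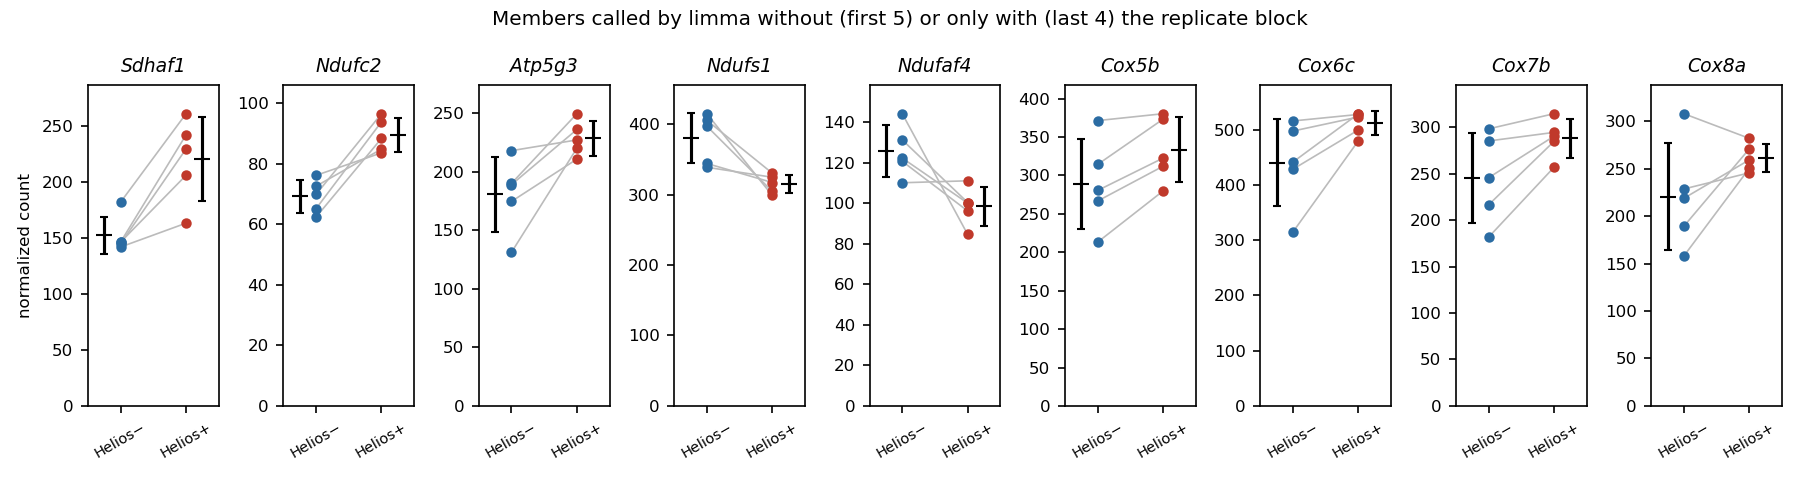
Normalized counts (y axis, from 0) of the 5 members called by limma and of the 4 called only with the replicate block, in 5 Helios- (blue) and 5 Helios+ (red) libraries. Grey lines join libraries of the same number and black bars are mean and SD; for Cox5b, Cox6c and Cox7b all 5 lines rise while the groups overlap.

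Several subunits of complex IV have tissue isoforms, and the forms without a muscle, heart or testis restriction made up nearly all counts here. Cox6a1, the broadly expressed form, had means of 261 ± 62.5 and 245 ± 28.6 normalized counts in Helios- and Helios+ libraries (SD, n = 5). The striated muscle form Cox6a2 had 0 to 3.89 in Helios- and 0 to 1.05 in Helios+ libraries and was not tested. Cox6b1 had 199 ± 56.9 and 200 ± 17.9 (SD, n = 5), whereas the testis form Cox6b2 had 0 to 3.42 and 0 to 7.53 and was not tested. Cox4i1 had 500 ± 134 and 484 ± 61.1, Cox7a2 had 120 ± 25.3 and 125 ± 17.4, and Ndufa4, assigned to complex IV in spite of its symbol, had 77.9 ± 15.0 and 80.8 ± 10.1 (SD, n = 5). None of these was called with or without the block.

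In complex V, 1 of 15 subunits was called. Atp5g1, Atp5g2 and Atp5g3 encode the same mature subunit c, whose ring turns in the membrane as protons pass. Atp5g3 (chromosome 2, 73908447 to 73911326, minus strand) had 131, 175, 190, 189 and 218 normalized counts in Helios- libraries. It had 220, 211, 250, 236 and 227 in Helios+ libraries. Only Helios- library 5 reached into the Helios+ range, and all 5 pairs were higher in Helios+. Atp5g3 rose by 0.36 ± 0.12 on the log2 scale (SE), from 181 ± 31.8 to 229 ± 14.9 (SD, n = 5), with a limma adjusted p of 0.0369 and of 0.0038 with the block. Without the block, the call was lost in 7 of the 10 fits without 1 library, with an adjusted p of at most 0.0885. It was also lost in 4 of the 5 fits without both libraries of 1 number.

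The other genes of subunit c were not called. Atp5g1 had 51.5, 64.6, 78.6, 71.0 and 66.2 normalized counts in Helios- and 61.8, 74.4, 84.6, 83.5 and 77.7 in Helios+ libraries, higher in all 5 pairs, with a log2 change of 0.20 ± 0.14 (SE). Atp5g2 had 107 ± 30.1 and 130 ± 24.1 (SD, n = 5), was higher in 4 of 5 pairs and had a log2 change of 0.30 ± 0.19 (SE). A share of 38.3% of the 50-base words of Atp5g2 and 11.1% of those of Atp5g1 occurs in other genes. Atp5a1, the alpha subunit of the catalytic head and the member with the most counts, had means of 2316 ± 427 and 2365 ± 237 (SD, n = 5). Its log2 change was 0.04 with a 95% limma interval from -0.20 to 0.29. Atp5h, part of the stalk that holds the head in place, had the lowest change of the complex, -0.15 ± 0.14 (SE), and 36.9% of its 50-base words occur in other genes.

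Levels were compared between genes only as normalized counts per kilobase of transcript, the mean over 10 libraries divided by the shortest principal transcript length. Subunits of the same complex, which assemble in fixed proportions, spanned a wide range. In complex II, Sdha was at 530 per kilobase, Sdhb at 259, Sdhd at 92.6 and Sdhc at 42.2. In complex III the range was from 79.3 (Cyc1) to 1102 (Uqcrh). In complex V, Atp5h was highest at 1547 per kilobase by this measure. Its principal transcripts run from 486 to 682 bases, so the value depends on the length used. The orders by the longest lengths were not compared. Each order describes these total RNA libraries, in which coverage along a transcript and reads shared with near copies were not tested.

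Most of the variation of the members went with the replicate number. For a member, the replicate number (4 degrees of freedom) took a median of 68.7% of the sum of squares over the 10 libraries and the group (1 degree of freedom) 5.0%, whereas over all genes tested the medians were 44.3% and 22.4%. Helios- library 1 was the lowest of its group for 68 of the 85 members (80.0%, against 30.1% of all genes tested). Helios- library 3 was the highest for 62 (72.9%, against 30.5%). In the Helios+ group, library 1 was lowest for 45 members (52.9%, against 26.3%) and library 3 highest for 43 (50.6%, against 22.9%).

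The pattern ran through complexes I to V in Helios- libraries and was wider there than in Helios+ libraries. Over all members the median log2 deviation from the group mean was -0.38 in Helios- library 1 and 0.30 in Helios- library 3. It was -0.13 and 0.12 in the Helios+ libraries of these numbers. In Helios+ libraries the median of complex II was highest in library 2 (0.13), with 0.005 in library 3. The median of the complex I core was lowest in Helios+ library 4 (-0.11), with -0.08 in library 1. All 15 subunits of complex V were lowest in Helios- library 1, and all 12 of complex IV were highest in Helios- library 3. The summed counts of complex IV spanned 1.90-fold over the 10 libraries, and those of complex II 1.30-fold. The medians of the 6 assembly factors were smaller, at -0.06 in Helios- library 1 and 0.08 in Helios- library 3. Helios- library 1 was lowest for 2 of the 6 and Helios- library 3 highest for 2. That is 33.3% each, near the 30.1% and 30.5% of all genes tested. In Helios+ libraries the signs were opposite, with 0.15 in library 1 and -0.09 in library 3. As a result the median change of the members depended on the pair, with 0.26, 0.06, -0.18, -0.02 and -0.03 on the log2 scale for pairs 1 to 5.

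**Figure D3:**
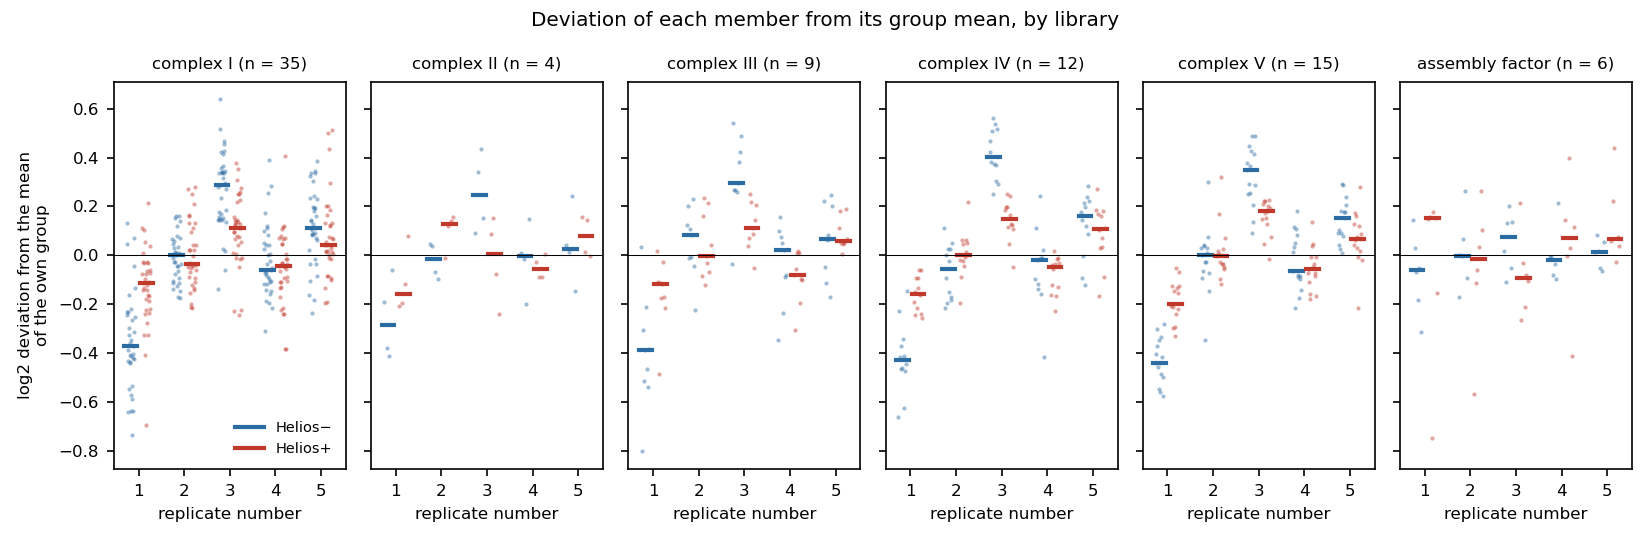
Log2 deviation of each tested member from the mean of its own group (y axis), by replicate number (x axis) and complex, with Helios- in blue, Helios+ in red and horizontal bars for medians; cytochrome c and the 3 other symbol matches are left out. In complexes I to V, the bars of replicate 1 lie lowest in Helios- libraries and those of replicate 3 highest; the bars of the assembly factors are closer to 0 in Helios- and run the other way in Helios+ libraries.

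Some library measures moved with parts of this order. The share of reads from the ribosomal RNA precursor Rn45s was lowest in Helios- library 1 (8.54%) and highest in Helios- library 3 (18.6%). The nuclear RNA Malat1 took 3.64% of the reads in Helios- library 1, the highest share of the 10 libraries, and 1.30% in Helios+ library 3, the lowest. Helios- library 1 also had the fewest reads, while among Helios+ libraries the fewest were in library 5. The members are short, with a median of 1114 exon bases against 3335 for all genes tested, and 78 of the 84 with a length were below the latter value. Other genes of up to 1000 exon bases had median deviations of -0.15 in Helios- library 1 and 0.18 in Helios- library 3, while other genes above 8000 bases had 0.11 and -0.08.

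After a trend on exon length was removed from each library, the members' medians were -0.21 in Helios- library 1 and 0.20 in Helios- library 3, smaller than before and of the same sign. With this trend removed, 2 members were called higher and 2 lower by limma, where 24.8% of all genes with a length were called, 14.6% higher and 10.2% lower. With the block as well, 5 were called higher and 8 lower, where 38.3% of these genes were called, 19.8% higher and 18.4% lower. Atp5h (log2 change -0.20) and Cox7a2l (-0.28) were among those called lower there. The part of RNA quality or library preparation in these differences was not tested.

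**Figure D4:**
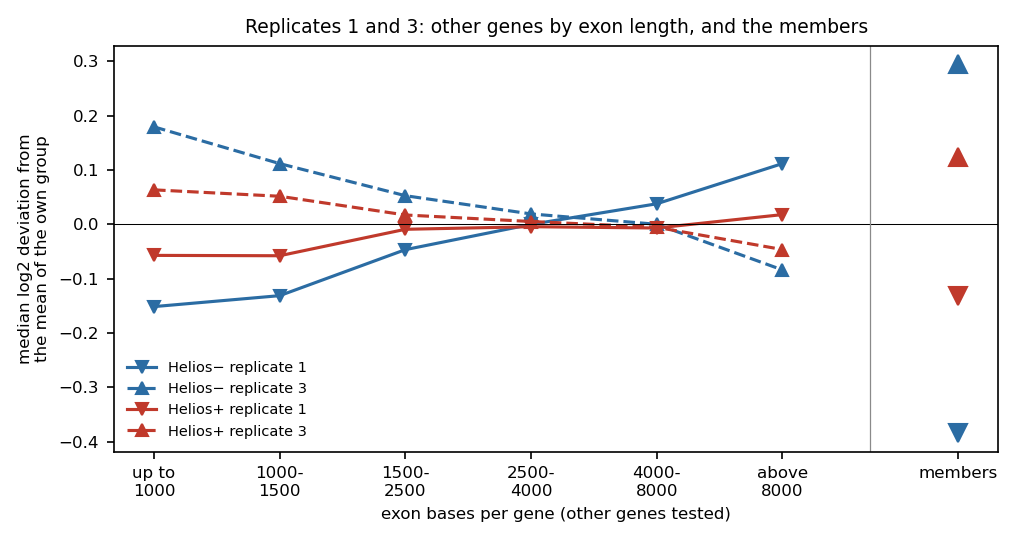
Median log2 deviation from the group mean (y axis) in libraries 1 and 3 of each group, for other tested genes in 6 classes of exon length (x axis) and for the members (large symbols at right). Short genes and members deviate in the same direction, and the members more, from -0.38 in Helios- library 1 to 0.30 in Helios- library 3.

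Promoters of the members were described from RefSeq sequence of GRCm38.p6, over 250 bases before each RefSeq start, for the 72 members with an entry. A gene was counted if any window entered for it held the motif. Windows that lie inside a gene as GENCODE annotates it were kept in the counts. The motifs searched on both strands were GCGC, any base and TGCGC for NRF1, a factor known to act on respiratory genes, CCGGAAG for ETS factors and AANATGGCG (N is any base) for YY1. The NRF1 motif was in 13 of 72 members (18.1%) and in 10.4% of the 8552 genes tested with an entry. The ETS motif was in 14 (19.4%, against 17.4%) and the YY1 motif in 5 (6.94%, against 2.81%). Any of the 3 was in 27 (37.5%, against 27.6%). Some genes hold more than 1 of the motifs, so these counts overlap, and a match is a description of letters and not a binding site.

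Among the 5 called members, windows upstream of the annotated gene were at hand for Ndufaf4, Ndufc2 and Atp5g3. The RefSeq window of Sdhaf1, counted among the 72 and without a match, lies inside the gene as GENCODE annotates it and is not printed, and Ndufs1 was not among the 72. The windows of Ndufaf4, Ndufc2 and Atp5g3 are shown because these members changed in opposite directions, and capitals mark the motif match. Ndufaf4 (chr4:24897833-24898082, plus strand), the member that fell, holds the NRF1 motif, the same letters on both strands, 113 bases before the start. Ndufc2 (chr7:97399753-97400002, plus strand) and Atp5g3 (chr2:73911327-73911576, minus strand), which rose, hold no match to the 3 motifs in these windows. Among the other named members with the NRF1 motif, Atp5g2 and Sdhd had positive log2 changes and Atp5h and Sdha negative ones. Cox6a1, also a named member with this motif, had a lower mean in Helios+ libraries. The directions of the remaining members with the motif are not given here. Whether motif and direction go together was not tested.
Ndufaf4: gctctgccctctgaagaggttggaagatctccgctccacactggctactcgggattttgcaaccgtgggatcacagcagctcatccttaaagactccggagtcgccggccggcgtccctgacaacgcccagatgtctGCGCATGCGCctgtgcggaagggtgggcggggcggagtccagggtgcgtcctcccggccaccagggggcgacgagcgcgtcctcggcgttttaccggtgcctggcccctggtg
Ndufc2: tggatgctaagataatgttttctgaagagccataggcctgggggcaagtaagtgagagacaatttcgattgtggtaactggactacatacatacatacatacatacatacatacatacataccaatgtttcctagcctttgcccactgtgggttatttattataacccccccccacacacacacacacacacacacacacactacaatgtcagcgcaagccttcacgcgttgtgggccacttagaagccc
Atp5g3: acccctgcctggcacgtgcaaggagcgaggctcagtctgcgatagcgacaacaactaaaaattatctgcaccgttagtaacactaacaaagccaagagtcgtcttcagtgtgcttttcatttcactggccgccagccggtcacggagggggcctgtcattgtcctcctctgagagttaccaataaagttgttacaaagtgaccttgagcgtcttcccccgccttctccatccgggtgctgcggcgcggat

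NRF1 itself, other regulators of respiratory genes and enzymes of mitochondrial DNA formed the first of 7 lists of related mitochondrial genes. Polg and Polg2, named below, belong to these enzymes and are not regulators. Of the 18 genes of this list tested, 5 fell and 0 rose in Helios+ cells by limma. In that fit 10.7% of all genes tested were called lower and 14.1% higher. With the replicate block 7 fell and 1 rose, where 18.5% of all genes tested were called lower and 18.9% higher. The 1 that rose was Gabpb1, a subunit of an ETS factor that acts on respiratory genes, with a log2 change of 0.30 ± 0.11 (SE), higher in 5 of 5 pairs, and a limma adjusted p of 0.0555 without and 0.00501 with the block. It is outside the rule for named genes and was named after its value was seen. Nrf1, whose product binds the motif above, had 738, 724, 771, 722 and 757 normalized counts in Helios- and 582, 643, 607, 621 and 635 in Helios+ libraries. The groups did not overlap, and Nrf1 fell by 0.27 on the log2 scale (SE 0.06), with a limma adjusted p of 0.00303. The coactivator gene Pprc1 fell by 0.39, the catalytic subunit gene of the mitochondrial DNA polymerase, Polg, by 0.30, and the coactivator gene Ppargc1b by 0.36. The fifth was Polg2, the accessory subunit of that polymerase, which is outside the rule for named genes, was named after its value was seen, and fell by 0.63.

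A list of assembly factors and some other proteins outside the symbol pattern gave 1 higher and 2 lower calls among 26. With the block it gave 2 higher and 4 lower. The 1 higher call without the block, Atpif1, is not an assembly factor. Over all genes tested, 24.8% were called without the block and 37.3% with it. Atpif1, the inhibitor of ATP hydrolysis by complex V, had 63.3, 108, 98.3, 103 and 110 normalized counts in Helios- and 232, 202, 203, 208 and 245 in Helios+ libraries. It rose by 1.19 ± 0.14 (SE) on the log2 scale, more than any member, with a limma adjusted p of 1.11e-05 and no overlap between groups. A share of 41.7% of its exon bases overlaps the predicted gene Gm12999, so its reads may be mixed with those of that gene. Cox10, an enzyme that acts in making the heme of complex IV, fell by 0.50, and Bcs1l, which inserts the iron-sulfur protein of complex III, fell by 0.64.

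Enzymes that feed the chain and mitochondrial carriers came next. Beside their counts, 24.8% of all genes tested were called by limma without the block and 37.3% with it. Among 17 genes of the tricarboxylic acid cycle 1 fell, Idh2, the mitochondrial NADP-dependent isocitrate dehydrogenase, from 186 ± 25.9 to 111 ± 10.8 (SD, n = 5), and 0 rose, while 2 fell with the block. Among 14 other electron inputs and carriers, 3 rose and 1 fell, and 4 rose and 3 fell with the block. The glycerol-3-phosphate dehydrogenase Gpd2, which reduces ubiquinone, fell by 0.70 on the log2 scale (SE 0.10), with a limma adjusted p of 9.27e-05. The ADP/ATP carrier Slc25a4 rose by 0.33 ± 0.09, the electron transfer flavoprotein subunit Etfb by 0.51 ± 0.14 and the sulfide quinone reductase Sqrdl by 0.70 ± 0.21 (SE). A share of 69.1% of the exon bases of Etfb overlaps the predicted gene Gm45233.

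Ubiquinone synthesis had 1 higher call among 12, Adck3, a kinase-like protein of that pathway, which rose by 0.75 ± 0.13 on the log2 scale (SE), and 1 higher and 2 lower with the block. Of 76 genes of the mitochondrial ribosome, 1 rose (Mrps6, by 0.67 ± 0.14, SE) and 1 fell (Mrps18a, by 0.34 on the log2 scale), and 1 rose and 2 fell with the block. A share of 36.1% of the exon bases of Mrps6 overlaps other genes. Protein import into mitochondria had 0 calls among 18 genes by limma, 0 with an unadjusted p under 0.05, and 1 lower with the block. Without the block, 3804 of all 10718 genes tested had an unadjusted p under 0.05. Beside the counts of these lists, 24.8% of all genes tested were called without the block and 37.3% with it. The median changes of the 7 lists lay between -0.12 (regulators and enzymes of mitochondrial DNA) and 0.08 (other inputs and carriers).

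**Figure D5:**
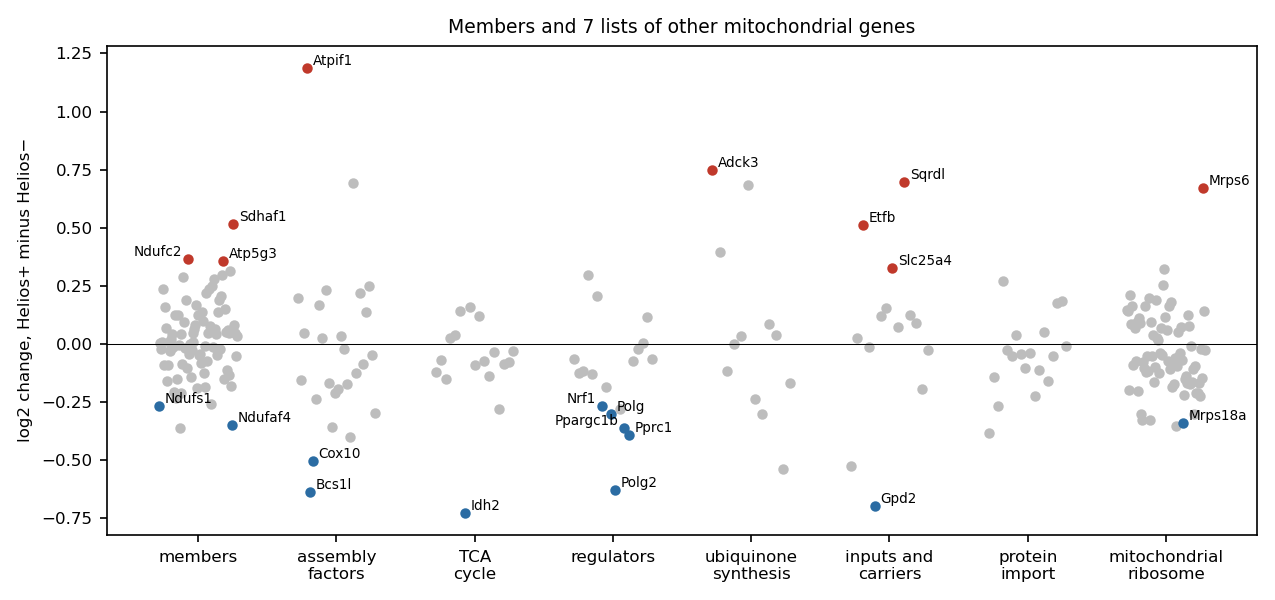
Log2 change (Helios+ minus Helios-, y axis) of the 85 members and of the tested genes of 7 other mitochondrial lists (x axis), 1 point per gene. Red points are called higher and blue points called lower by limma (adjusted p under 0.05); the members lie between -0.36 and 0.52, while Atpif1 is at 1.19 and Idh2 at -0.73.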

How the data were processed

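RNA-seq of total RNA, prepared with a stranded SMARTer pico-input kit per the labels' protocols, covered 10 libraries, 5 Helios- and 5 Helios+. The submitters' processing notes name mm10, HISAT2 2.0.4, HTSeq and DESeq2, without their roles. The sources used here do not give the annotation or the strand setting. The authors deposited 1 table of normalized counts, a signal that is never negative. Within a tolerance of 0.001, 100% of its values were whole multiples of 1 read, so whole reads were recovered (4872348 to 6948692 per library). The deposited signal is thus reads divided by a size factor.

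Genes with a mean of at least 10 were tested on log2(normalized count + 1), which understates changes of low genes, with limma 3.58.1 (R 4.3.3, trend and robust) over all genes, modelling the group alone. A gene was called at an adjusted p (Benjamini-Hochberg) under 0.05. Alternatives were the replicate block, edgeR 4.0.16 and DESeq2 1.42.0 on recovered reads, other scalings, pseudocounts and filters, and left-out libraries. Limma with and without the block, and edgeR without it, were run on simulated counts. These counts held no replicate effect, so how the fits handle such an effect was not tested. Deviations of same-numbered libraries correlated at 0.48, 0.19, 0.39, 0.16 and 0.15 across genes, above 0.1 in each pair, and for all 10 libraries best with the own number, so numbers were taken to pair samples. Lengths, overlaps and shared 50-base words came from GENCODE (GRCm38), with 86 of 87 members matched.

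Members and gene lists were chosen with earlier results of these data known. Named members were those called with or without the block, per complex the most abundant and the highest and lowest change (mean of at least 50), all of complex II and cytochrome c, and isoform families; per context list at most 4 called genes by smallest p. Among the members and the markers, some values are not reported here.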

Additional observations from a re-analysis of the deposited data

Results flagged for a closer look

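In 1 of 70 groups of 5 values checked, for the named members and the sum of each complex, 1 library stood apart from the other 4. Sdhaf1 had 182 normalized counts in Helios- library 2, where the gap to the next library took 0.888 of the whole range of the group, above the critical share of 0.71 for 5 values. Chance flags about 1 in 20 such groups. Without this library Sdhaf1 stayed called higher in Helios+ by limma.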

How the results depend on the processing

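The replicate block moved the members called higher from 3 to 7 with limma, and to 9 with edgeR, with 2 lower in both. The share of all genes called moved as well, from 24.8% to 37.3% with limma and from 24.6% to 37% with edgeR. The count of higher members was 1 to 6 and of lower members 0 to 4 over the fits without a library or a number. The share of all genes called in each of these fits is not given here, so the counts cannot be set against it. The extremes were 6 higher without Helios- library 3, 4 lower without Helios- library 1, 1 higher without Helios- library 4 and 0 lower without Helios- library 2 or 4. The block without replicate 1 gave 3 higher and 9 lower, without replicate 3 it gave 7 and 1, and the block with the length trend removed gave 5 and 8, where 36.8%, 34.8% and 38.3% of all genes tested in each fit were called. The last 3 alternatives were chosen after seeing the data, as was removing the length trend alone. Structural subunits only gave 2 and 1, since fewer members were counted. The label check of Ikzf2 (log2 change 4.42) had p = 0.0625 in the exact test within pairs. edgeR and DESeq2 without the block, other pseudocounts, filters, TMM and cyclic loess gave 3 and 2, and quantile normalization gave 2 and 3. DESeq2 called 26.6% of all genes, and the shares for the other pseudocounts, filters and scalings are not given here.

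Members near 0, called neither with nor without the block over all libraries, changed sign. Under quantile and cyclic loess scaling Sdha was at 0.051 and 0.056 and Cox4i1 at 0.0074 and 0.022, with Cox4i1 at 0.0053 under TMM. Quantile scaling put Sdhc at -0.013, Sdhd at -0.011 and Ndufa4 at -0.031. Removing the length trend, with or without the block, put Sdhb at -0.018, Cox6b1 at -0.019 and Ndufa4 at -0.00036. The block without replicate 1 put Sdhb at -0.039, Sdhc at -0.024, Uqcr10 at -0.0048, Atp5a1 at -0.0047 and Cox6b1 at -0.013, and without replicate 3 Cox4i1 at 0.062. Over fits without a library or number, log2 changes were -0.074 to 0.025 (Sdha), -0.088 to 0.092 (Sdhb), -0.054 to 0.18 (Sdhc), -0.032 to 0.30 (Uqcr10), -0.17 to 0.11 (Cox4i1), -0.17 to 0.054 (Cox6a1), -0.067 to 0.19 (Cox6b1), -0.0090 to 0.19 (Cox7a2), -0.037 to 0.15 (Ndufa4) and -0.056 to 0.13 (Atp5a1). The causes were not tested.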
